A study of Amphimedon queenslandica with 43 samples.

Results

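The transcripts of 29 larvae of the sponge Amphimedon queenslandica were compared for 1 question: whether the change from 1 to 9 hours post emergence (hpe) differed between larvae kept in constant light and larvae kept under natural day-night light. The 29 larvae, of 43 in the series, were taken by regime and age from the sample titles, with no measured value used. Constant light gave 7 larvae of 9 hpe and 7 of 1 hpe, and day-night gave 8 larvae of 9 hpe and 7 of 1 hpe. The other larvae, 7 at each age in constant dark (a neutral density filter that let 6.6% of the daylight through), entered the fit and are set beside the result.

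All larvae were collected within 30 minutes from 11 am and placed in filtered sea water under their regime by 0.5 hpe, so 1 hpe larvae had spent at least 0.5 hours in it. Constant light came from a full-spectrum Lumilux T5 HE tube and day-night light was natural, so the lamp cannot be told apart from the constancy of the light. Because the larvae were collected together, an effect of age and one of the hour of the day cannot be told apart either. By these times 1 hpe fell near the middle of the day and 9 hpe in the evening. At 9 hpe constant-light larvae were thus under the tube and day-night larvae under whatever natural light or darkness that hour had. The light level at sampling is not given, and an effect of light or darkness at sampling cannot be told apart from one on the age change. The labels hold 1 hpe to be before competence to settle and 9 hpe to be the competent age, and no settlement was measured in the files used here. Each larva was sequenced by itself from total RNA by CEL-Seq2, a barcoded method for small RNA amounts that counts the 3′ ends of polyadenylated transcripts.

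Amphimedon queenslandica is a demosponge whose parenchymella larvae are brooded and swim freely after release. A ring of pigmented, long-ciliated cells at the posterior pole steers the larva away from light, and the species is known for light sensing through cryptochromes rather than animal opsins. Larvae become able to settle and metamorphose some hours after release, when they respond to cues such as those of coralline algae. The count table names transcript models only by identifier. No identifier had a match among the reference's gene IDs, so no function, marker or sequence is given for any model, and at most 2 models per direction are named.

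Total counts per larva ran from 1890954 to 3677302 over the 29 larvae. At 9 hpe the mean was 3212740 ± 383430 for constant-light larvae (SD, n = 7) and 2489120 ± 452797 for day-night larvae (n = 8), a ratio of 1.29 (exact two-sided permutation test of mean log10 totals, p = 0.00730, adjusted p = 0.0146 over 2 comparisons). At 1 hpe the mean was 3164870 ± 240220 for constant-light and 2959940 ± 427228 for day-night larvae (n = 7 each), a ratio of 1.07 (exact permutation p = 0.263, adjusted p = 0.263). On the second principal component of log2 CPM, which held 5.99% of the variance, 8 of the 43 larvae stood apart at the low end. They lay beyond the widest gap between larvae. Of these, 4 were constant-light larvae at 9 hpe, 1 was a constant-light larva at 1 hpe, 3 were constant-dark larvae at 1 hpe and 0 were day-night larvae. When larvae were clustered by the correlation of their deviations from the mean of their age, the same 8 larvae formed a single cluster. A further cluster lay at the other end of the second component, at 33.8 to 49.2, with the next larva at 15.9. It held constant-light replicates 1, 2 and 3 and day-night replicates 4 and 6 at 1 hpe. It also held day-night replicates 1 and 5 and constant-dark replicate 7 at 9 hpe. No setting left the larvae of this further cluster out together. The labels name no parent and no batch.

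The change with age differed between the regimes for 368 of 14188 tested transcript models, 2.59% of them (edgeR quasi-likelihood F test of the difference, Benjamini-Hochberg adjusted p below 0.05). In 221 models (1.56% of those tested) the difference was positive, meaning that 9 hpe larvae stood higher relative to 1 hpe larvae in constant light than in day-night. In 147 models (1.04%) it was negative. Most positive models fell with age in day-night larvae, and in constant light they fell less or, in a smaller number, had a fitted rise. Most negative models rose with age in day-night larvae, and in constant light they rose less or had a fitted fall, in similar numbers. Levels are per whole larva, so a change in the number of cells that hold a transcript and a change per cell cannot be told apart.

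The count of 368 depended on how the fit was made. It was 611 with DESeq2 and 146 with no filter on low counts, where 38514 models were tested. It was 142 without the 8 larvae that stood apart, which takes away 4 of the 7 constant-light larvae at 9 hpe. With clusters of alike larvae as a term in the fit it was 264, and only 192 of these were among the 368. The split also turned, to 159 positive and 174 negative models with library totals as the only scaling and to 69 positive and 77 negative models with no filter on low counts. All 368 differences had the same sign under each of these settings, which is no separate support, since the same larvae chose the models. Without those 8 larvae the 4 models described next differed by 2.84 (Aqu2.1.32109_001), 1.66 (Aqu2.1.28587_001), -2.15 (Aqu2.1.29913_001) and -1.52 (Aqu2.1.33914_001) on the log2 scale. With every larva thinned to the lowest total count, which removes the depth gap at 9 hpe, 281 of 12964 tested models were called. Of these, 262 were among the 368.

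The model with the smallest p-value of all was Aqu2.1.32109_001, whose fall with age was smaller in constant light. In constant light it stood at 218 to 331 CPM at 9 hpe (median 279, n = 7; CPM are counts scaled to a common, TMM-adjusted library total) and at 378 to 985 CPM at 1 hpe (median 561, n = 7). In day-night it stood at 53.5 to 83.3 CPM at 9 hpe (median 70.5, n = 8) and at 704 to 1226 CPM at 1 hpe (median 883, n = 7). Every constant-light larva was thus above every day-night larva at 9 hpe. At 1 hpe the ranges overlapped through constant-light replicate 7 alone, at 985 CPM, and its other constant-light larvae lay below every day-night larva. The log2 difference of constant light from day-night at 1 hpe was -0.69 ± 0.18 SE (edgeR adjusted p = 0.0584). The age change of Aqu2.1.32109_001 was -1.07 ± 0.18 SE (log2) in constant light and -3.69 ± 0.19 SE in day-night, a difference of 2.62 ± 0.26 SE (edgeR adjusted p = 1.96e-08). In constant dark it stood at 25.4 to 55.1 CPM at 9 hpe and at 303 to 838 CPM at 1 hpe, an age change of -3.87 ± 0.21 SE, so it lay lower there at 9 hpe than in either other regime on average. Counts of Aqu2.1.32109_001 reached 4386 in a day-night larva at 1 hpe, in a table whose highest count, 8192, occurs 23 times.

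Aqu2.1.28587_001 had the same pattern with closer starting levels. In constant light it stood at 317 to 589 CPM at 9 hpe (median 401, n = 7) and at 640 to 1082 CPM at 1 hpe (median 720, n = 7). In day-night it stood at 81.1 to 166 CPM at 9 hpe (median 135, n = 8) and at 695 to 1148 CPM at 1 hpe (median 812, n = 7). The regimes did not overlap at 9 hpe and overlapped widely at 1 hpe, where their log2 difference was -0.16 ± 0.14 SE. The age change of Aqu2.1.28587_001 was -0.87 ± 0.14 SE in constant light and -2.67 ± 0.14 SE in day-night, a difference of 1.80 ± 0.20 SE (edgeR adjusted p = 1.52e-07). Constant-dark larvae stood at 99.3 to 172 CPM at 9 hpe and 724 to 1064 CPM at 1 hpe, an age change of -2.67 ± 0.15 SE, equal to that in day-night to 2 decimals.

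Aqu2.1.29913_001 led the negative differences. In constant light it stood at 64.5 to 108 CPM at 9 hpe (median 87.4, n = 7) and at 33.4 to 62.9 CPM at 1 hpe (median 44.04, n = 7). In day-night it stood at 255 to 383 CPM at 9 hpe (median 287, n = 8) and at 24.002 to 52.6 CPM at 1 hpe (median 34.3, n = 7). The highest constant-light larva at 9 hpe was far below the lowest day-night larva, and at 1 hpe the regimes overlapped. The age change of Aqu2.1.29913_001 was 0.90 ± 0.16 SE in constant light and 3.11 ± 0.17 SE in day-night, a difference of -2.21 ± 0.22 SE (edgeR adjusted p = 1.96e-08). In constant dark the levels were 57.9 to 91.6 CPM at 9 hpe and 26.1 to 48.4 CPM at 1 hpe, an age change of 1.09 ± 0.16 SE.

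Aqu2.1.33914_001 was the second negative model. In constant light it stood at 150.05 to 251 CPM at 9 hpe (median 170.02, n = 7) and at 92.4 to 131 CPM at 1 hpe (median 105, n = 7). In day-night it stood at 344 to 646 CPM at 9 hpe (median 385, n = 8) and at 80.5 to 102 CPM at 1 hpe (median 92.2, n = 7). The regimes were again apart at 9 hpe and overlapping at 1 hpe. The age change of Aqu2.1.33914_001 was 0.82 ± 0.12 SE in constant light and 2.23 ± 0.12 SE in day-night, a difference of -1.41 ± 0.17 SE (edgeR adjusted p = 1.35e-06). In constant dark it stood at 89.1 to 132 CPM at 9 hpe and at 71.8 to 115 CPM at 1 hpe. Its age change there was 0.20 ± 0.12 SE, which did not pass the test (edgeR adjusted p = 0.270).

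**Figure D1:**
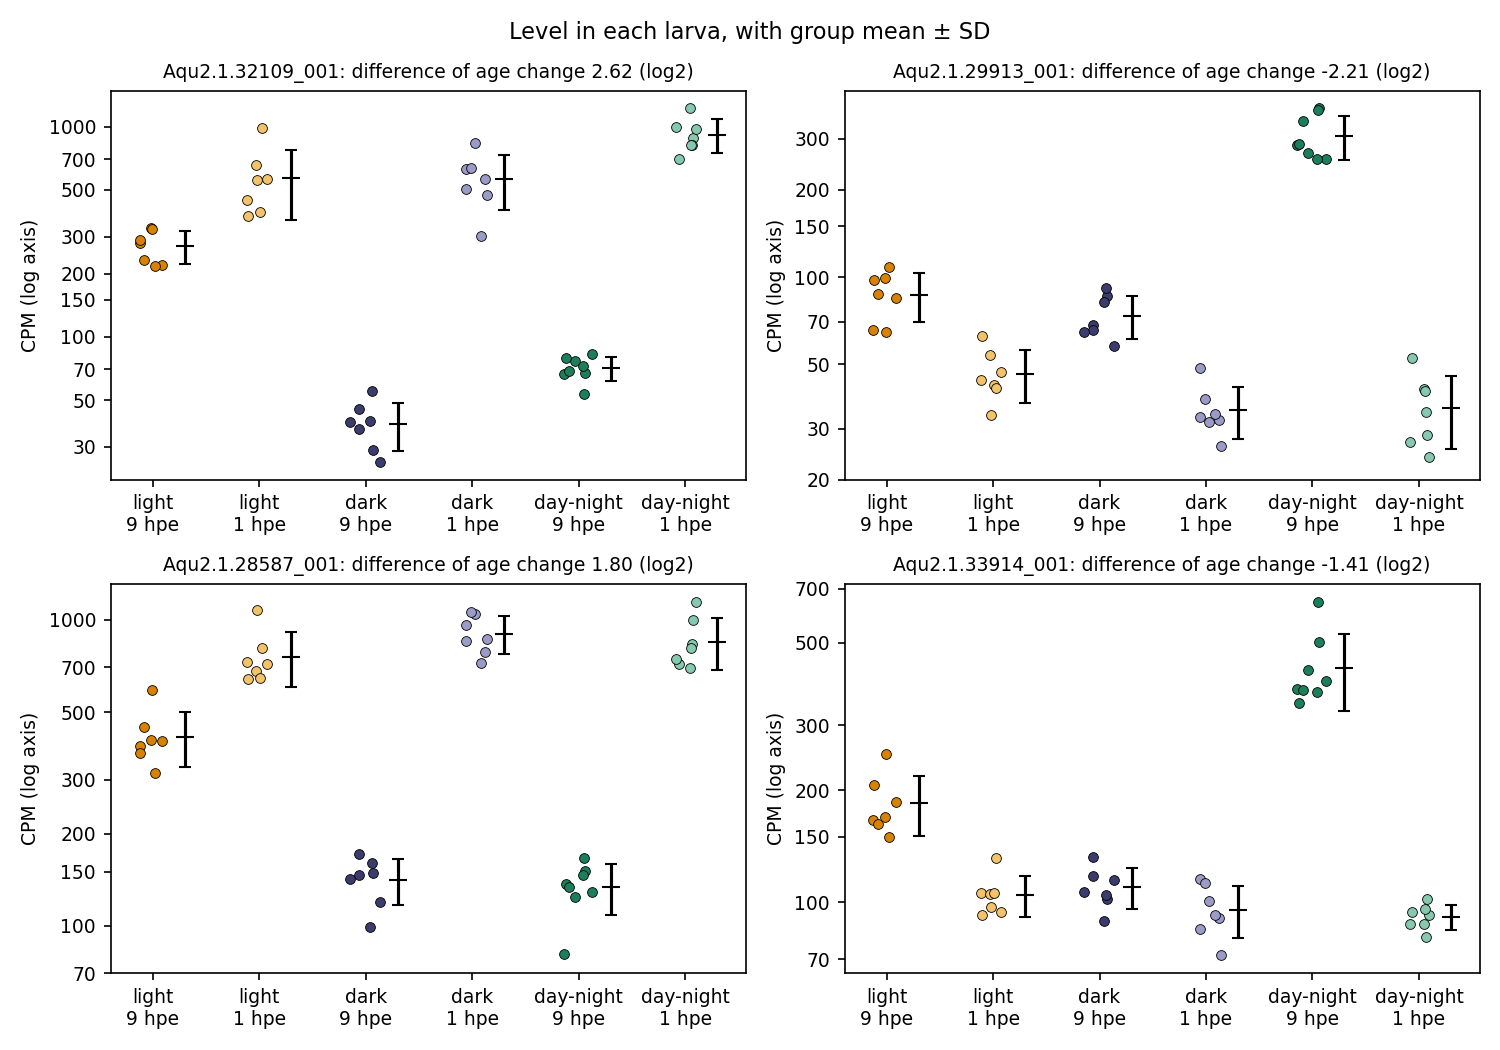
Level of the 4 named models in each of the 43 larvae, in CPM on a log axis, with 1 point per larva and the group mean ± SD beside the points. At 9 hpe the constant-light larvae lie above all day-night larvae for Aqu2.1.32109_001 and Aqu2.1.28587_001, and below them all for Aqu2.1.29913_001 and Aqu2.1.33914_001.

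The 4 models were also compared with constant dark. For Aqu2.1.32109_001 and Aqu2.1.28587_001 the age change in constant dark differed from that in day-night by -0.18 ± 0.26 SE and -0.01 ± 0.20 SE (edgeR adjusted p = 0.920 and 0.998), while constant light differed from constant dark by 2.80 ± 0.27 SE and 1.81 ± 0.20 SE (adjusted p = 3.30e-09 and 1.40e-07). For Aqu2.1.29913_001 and Aqu2.1.33914_001 it was constant dark and day-night that differed, by -2.02 ± 0.22 SE and -2.03 ± 0.17 SE (adjusted p = 7.56e-08 and 2.02e-10). Constant light and constant dark differed there by -0.18 ± 0.22 SE and 0.62 ± 0.17 SE (adjusted p = 0.755 and 0.0633). These comparisons share larvae with each other, and a p above the threshold does not show that 2 regimes act alike.

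The whole list of positive models was described by its fitted changes, with no test, since the same larvae chose it. Over the 221 models the median difference was 1.01 (log2), with 10th and 90th percentiles of 0.56 and 2.62, and 113 models differed at least 2-fold. Their median age change was -0.07 in constant light and -1.04 in day-night. By the test, 201 of the 221 fell in day-night (12.1% of all models did), and in constant light 34 fell (3.48% of all) and 15 rose (2.63% of all). The 10th to 90th percentiles of the age change were -0.65 to 0.73 in constant light and -2.73 to -0.52 in day-night. By fitted value, 128 of the 221 fell in both regimes, 92 fell in day-night and rose in constant light, and 1 rose in both, so a smaller fall was the most frequent pattern.

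The 147 negative models had a median difference of -1.20, with 10th and 90th percentiles of -2.61 and -0.64, and 94 differed at least 2-fold. Their median age change was 0.02 in constant light and 1.36 in day-night. By the test, 130 of the 147 rose in day-night (9.94% of all models did), and in constant light 31 rose and 15 fell. The 10th to 90th percentiles were -0.75 to 1.03 in constant light and 0.39 to 3.02 in day-night. By fitted value, 75 rose in both regimes, 69 rose in day-night and fell in constant light, and 3 fell in both. Over all 14188 tested models, 867 (6.11%) changed with age in constant light and 3127 (22%) in day-night. Their median age change was 0.00 in constant light and 0.01 in day-night, and the median difference was 0.00.

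**Figure D2:**
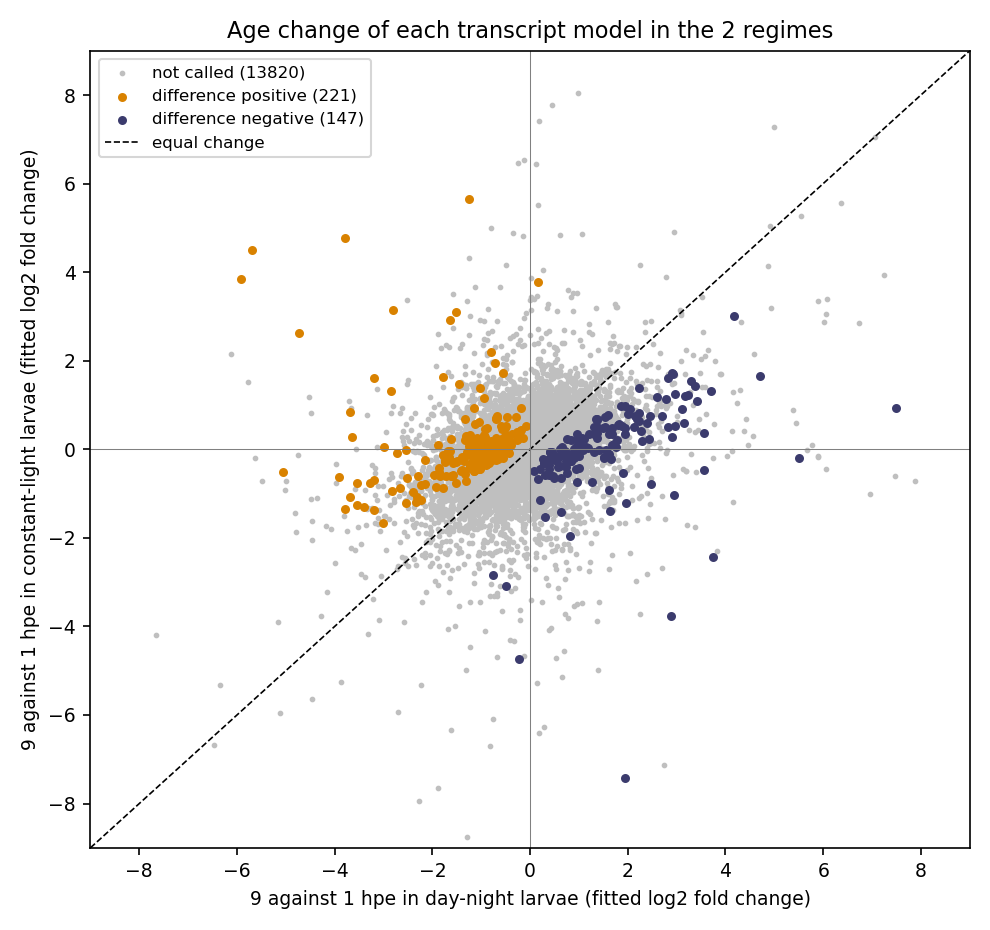
Fitted log2 change from 1 to 9 hpe of each of 14188 transcript models in day-night larvae (horizontal) and in constant-light larvae (vertical), with the 221 positive and 147 negative differences in colour. Most coloured points lie beside the horizontal zero line, above the dashed line of equal change for positive and below it for negative differences.

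The levels of both lists are given at each age as a description, since the same larvae chose the models and the choice itself favours gaps of opposite sign at 9 and 1 hpe. For the positive list the mean log2 CPM per larva at 9 hpe was 6.51 ± 0.18 in constant light (SD, n = 7) and 5.77 ± 0.11 in day-night (n = 8). At 1 hpe it was 6.502 ± 0.05 in constant light and 7.001 ± 0.15 in day-night (n = 7 each). Individual larvae ran from 6.14 to 6.69 in constant light and from 5.64 to 5.95 in day-night at 9 hpe, and from 6.45 to 6.60 in constant light and from 6.78 to 7.15 in day-night at 1 hpe. The larva nearest to the day-night range at 9 hpe was constant-light replicate 5, at 6.14, and the other 6 constant-light larvae lay between 6.48 and 6.69.

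For the negative list the means at 9 hpe were 5.08 ± 0.10 in constant light and 6.17 ± 0.08 in day-night, and at 1 hpe 5.05 ± 0.04 in constant light and 4.68 ± 0.10 in day-night. Individual constant-light larvae ran from 4.96 to 5.26 at 9 hpe and from 5.003 to 5.11 at 1 hpe, so that the ages overlapped. Individual day-night larvae ran from 6.06 to 6.28 at 9 hpe and from 4.57 to 4.83 at 1 hpe, with no overlap. Replicate 5 was again the constant-light larva nearest to day-night at 9 hpe.

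**Figure D3:**
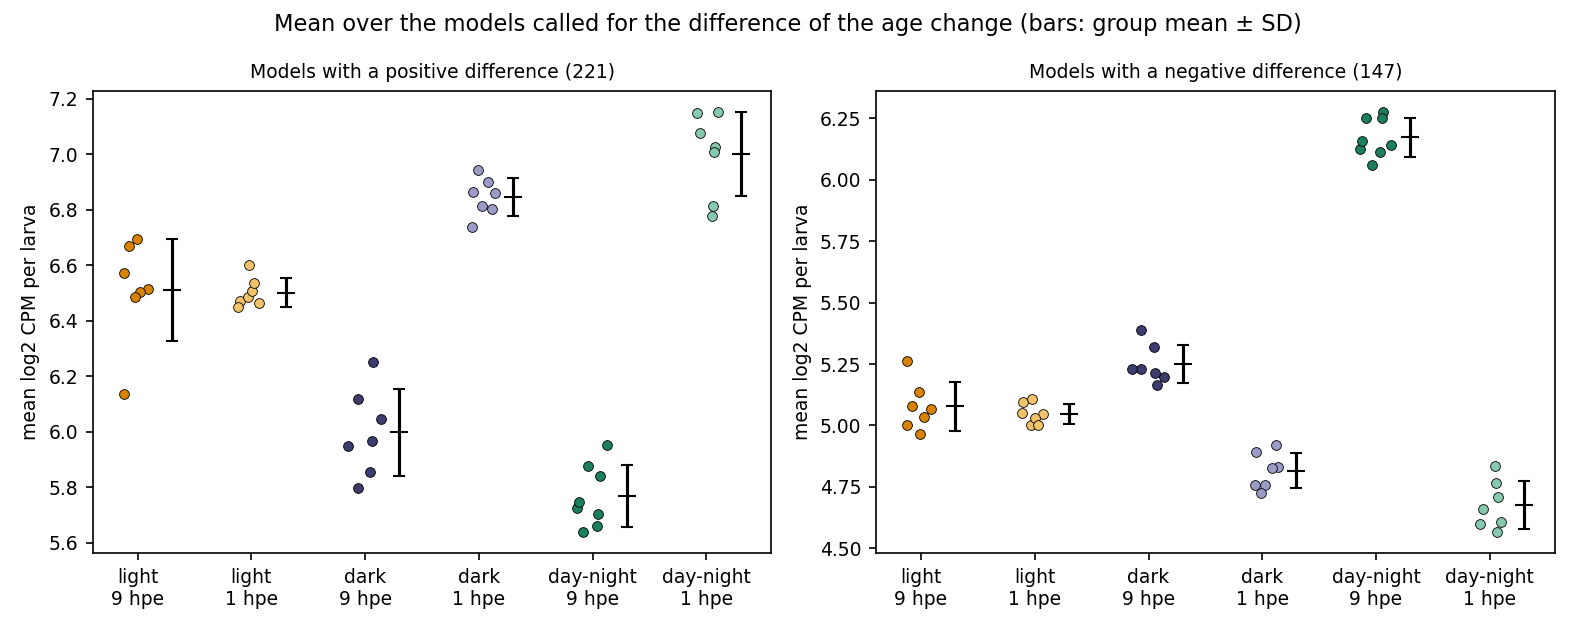
Mean log2 CPM per larva over the 221 models with a positive and the 147 with a negative difference of the age change, 1 point per larva, with group mean ± SD. In both panels constant-light larvae of 9 and 1 hpe lie at about the same level (means 6.51 and 6.502 on the left, 5.08 and 5.05 on the right), while day-night larvae of 9 and 1 hpe lie far apart.

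Constant light differed from day-night for 688 models at 9 hpe (4.85% of 14188 tested, 408 or 2.88% higher and 280 or 1.97% lower) and for 124 models at 1 hpe (0.874%, 20 or 0.141% higher and 104 or 0.733% lower; edgeR, same threshold). Both comparisons share all their larvae with the difference of the age change. Among the positive models 125 of 221 were higher at 9 hpe and 36 lower at 1 hpe, and among the negative ones 103 of 147 were lower at 9 hpe and 12 higher at 1 hpe. Model by model, the positive list had a median log2 fold of constant light over day-night of 0.66 at 9 hpe and -0.37 at 1 hpe. For the negative list the medians were -0.85 at 9 hpe and 0.31 at 1 hpe. The regimes differed more at 9 hpe than at 1 hpe in 138 of the 221 positive models, in 122 of the 147 negative models and in 7420 of all 14188 models. At 9 hpe all constant-light larvae lay above all day-night larvae in 28 of the 221 positive models, where 66 of all 14188 models (0.465%) did so. All lay below in 57 of the 147 negative models, where 111 of all models (0.782%) did so. At 1 hpe all constant-light larvae lay below all day-night larvae in 20 of the 221 positive models, and in 66 of all models (0.465%). They lay above in 3 of the 147 negative models, and in 12 of all models (0.0846%).

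Models called for the difference were more abundant than the rest, above all the positive ones. Their median level over all larvae was 149 CPM for the positive list, 53.1 CPM for the negative list and 17.9 CPM for all tested models. Among the 3547 tested models with the highest mean log2 CPM, 4.26% were positive and 1.69% negative, and among the 3547 with the lowest 0.451% and 0.310%. More counts per model make a difference of a given size easier to call, and the part of abundance in these shares was not tested. Assembled models with TCONS identifiers made up 3 of the 221, 1 of the 147, and 363 of the 14188 tested models (2.56%).

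The means of the constant-dark larvae do not enter the difference, although these larvae share its fit: with only the 29 larvae in the fit 298 models were called, 273 of them among the 368. Their age changes are set beside those of both lists. Over the positive list the age change in constant dark had a median of -0.65, closer to the -1.04 of day-night than to the -0.07 of constant light. In constant dark 147 of the 221 fell with age (66.5%, against 10.6% of all tested models). The age change in constant dark lay nearer to that in day-night than to that in constant light for 169 of the 221 positive models. Over the negative list the median age change in constant dark was 0.40, nearer to the 0.02 of constant light than to the 1.36 of day-night. In constant dark 53 of the 147 rose (36.1%, against 9.39% of all tested models) and 7 fell (4.76%, against 10.6%). For 45 of the 147 negative models the change in constant dark lay nearer to day-night than to constant light, and for 8194 of all 14188 models it did. Both lists were more abundant than all tested models, and the part of abundance in these shares was not tested either.

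In single constant-dark larvae the mean log2 CPM of the positive list was 5.80 to 6.25 at 9 hpe and 6.74 to 6.94 at 1 hpe, an age change of -0.85 beside 0.01 in constant light and -1.23 in day-night. At 9 hpe this range overlapped that of day-night larvae, and that of constant-light larvae through replicate 5 alone. That of the negative list was 5.17 to 5.39 in constant dark at 9 hpe and 4.73 to 4.92 at 1 hpe, an age change of 0.43 beside 0.03 in constant light and 1.49 in day-night. No constant-dark larva reached the lowest day-night larva at 9 hpe, at 6.06. Whether the lists differ in this was not tested. For comparison, 133 models (0.937%) differed in their age change between constant dark and day-night, 111 (0.782%) negatively and 22 (0.155%) positively. Between constant light and constant dark 148 (1.04%) differed, 105 (0.74%) positively and 43 (0.303%) negatively. Of the 221 positive models, 45 had a positive difference of constant light from constant dark and 6 a positive one of constant dark from day-night. Of the 147 negative models, 7 had a negative difference of constant light from constant dark and 60 a negative one of constant dark from day-night. All of these share larvae with the choice of the lists.

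A further pair of lists was chosen by the contrast of 9 with 1 hpe in constant-dark larvae, by which 1332 models rose and 1506 fell. The group means of the 29 larvae do not enter that contrast, but the same fit gave it, so these larvae had a part in the filter, the scaling and the dispersions behind the choice. With library totals as the only scaling the lists held 2842 risen and 820 fallen models, since the median age change of all models then moved to 0.27 in constant dark, 0.12 in constant light and 0.19 in day-night. The 1332 risen models had a median age change of 0.29 in constant light and 0.57 in day-night. The 1506 fallen models had a median age change of -0.32 in constant light and -0.72 in day-night. Relative to the median of all models, the values under library totals alone were 0.20 and 0.41 for the risen and -0.46 and -0.96 for the fallen models, in constant light and day-night in turn.

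Without the 8 larvae that stood apart, 724 models rose and 1008 fell in constant dark. The median age changes were then 0.34 in constant light and 0.63 in day-night for the risen models, and -0.40 and -0.77 for the fallen ones.

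The median of each list thus had the same sign in constant light and in day-night, and was smaller in size in constant light. The absolute age change was smaller in constant light for 1026 of the 1332 risen and 1179 of the 1506 fallen models, and for 8529 of all 14188 models. A positive difference was called for 147 of the 1506 fallen models (9.76%, against 1.56% of all models) and a negative one for 7 (0.465%, against 1.04%). A negative difference was called for 53 of the 1332 risen models (3.98%, against 1.04%). A positive one was called for 0 of them by edgeR, for 2 by DESeq2 and for 1 by limma voom, and 16 had an unadjusted p below 0.05 in edgeR. Median levels over all larvae were 102 CPM for the fallen list, 26.1 CPM for the risen list and 17.9 CPM for all tested models. Abundant models were called more often, and the part of abundance in these shares was not tested.

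Per larva, the mean log2 CPM of the risen list at 9 hpe was 4.47 to 4.78 in constant light (median 4.68, n = 7) and 4.82 to 4.96 in day-night (median 4.84, n = 8). At 1 hpe it was 4.18 to 4.44 in constant light (median 4.29) and 3.95 to 4.38 in day-night (median 4.17, n = 7 each). The regimes did not overlap at 9 hpe and overlapped at 1 hpe. For the fallen list the values at 9 hpe were 5.71 to 6.06 in constant light (median 5.92) and 5.53 to 5.78 in day-night (median 5.67), with overlap. At 1 hpe they were 6.26 to 6.38 in constant light (median 6.27) and 6.32 to 6.66 in day-night (median 6.52), again with overlap. The difference of the 2 list means changed by 0.72 with age in constant light and by 1.53 in day-night, so that the change in constant light was 46.8% of that in day-night. About the same share was found for each list by itself, 46.7% for the risen and 46.9% for the fallen models.

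**Figure D4:**
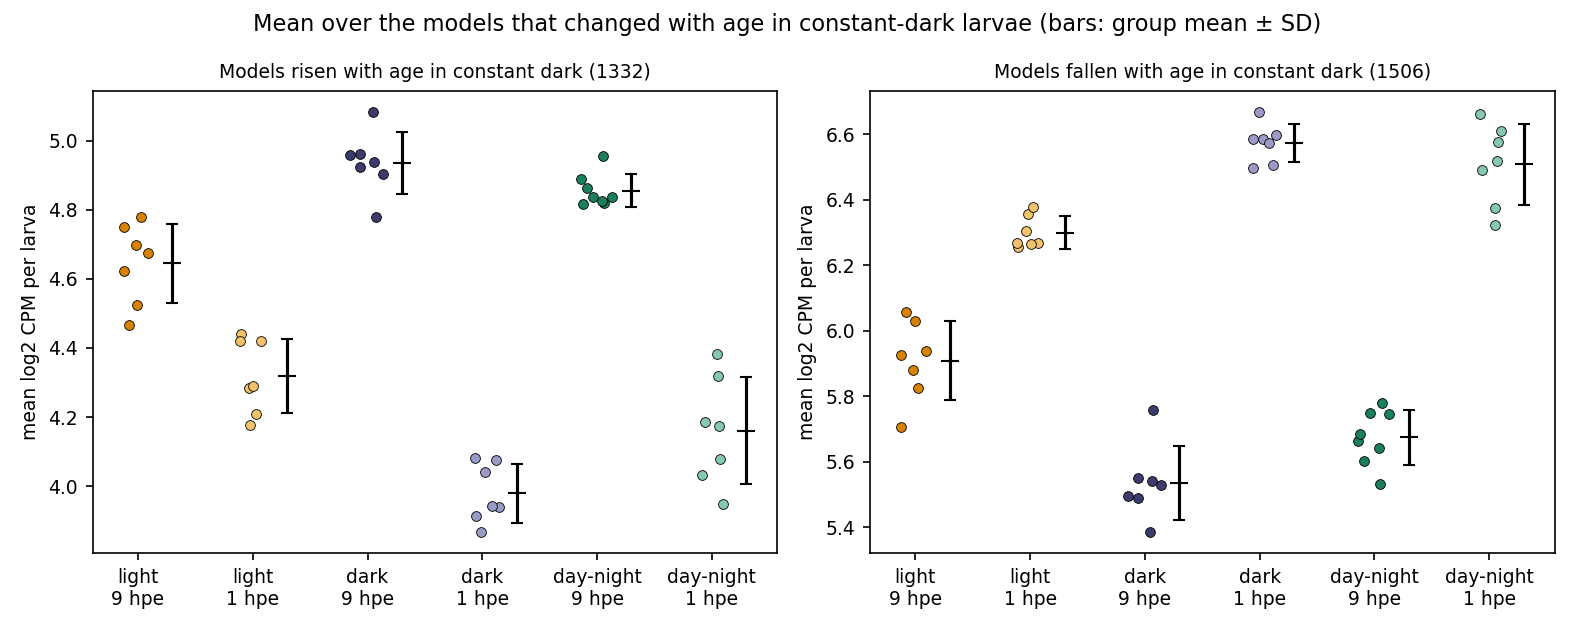
Mean log2 CPM per larva over the 1332 models that rose and the 1506 that fell with age in constant-dark larvae, 1 point per larva, with group mean ± SD; the models were chosen by the constant-dark contrast. Constant-light larvae of 9 and 1 hpe lie closer together (means 4.64 and 4.32 on the left, 5.91 and 6.30 on the right) than day-night larvae of 9 and 1 hpe (4.86 and 4.16, 5.67 and 6.51).

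The first principal component of all tested models held 8.92% of the variance and separated the ages. It was drawn from the same larvae and models, so its values are a description and no separate support. Constant-light larvae lay at 7.19 to 31.6 at 9 hpe and at -33.7 to -12.4 at 1 hpe. Day-night larvae lay at 34.3 to 56.3 at 9 hpe and at -65.6 to -25.9 at 1 hpe. At 9 hpe the highest constant-light larva was below the lowest day-night larva, and at 1 hpe the regimes overlapped. Constant-dark larvae lay at 17.2 to 44.8 at 9 hpe, overlapping both other regimes, and at -47.2 to -29.1 at 1 hpe. Among constant-light larvae at 9 hpe, the 4 that stood apart on the second component lay at 7.19, 15.6, 15.8 and 31.6 on the first, and the other 3 at 18.3, 27.8 and 30.7.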

How the data were processed

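Groups came from the sample titles. The authors deposited raw counts per transcript model and larva (47411 models, 8897 with no count). The table's name marks spike-in and bacterial features as removed. No source used here gives the aligner, counter, genome build or annotation. The highest count, 8192, occurred 23 times, so counts near it may be capped. Models counted by 3′ tags may share reads with near-identical copies. The deposited normalized table was not used.

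From the counts, 14188 models passed filterByExpr (minimum count 10, by group). Libraries were scaled by TMM, and 1 robust quasi-likelihood model with 6 group means was fitted to all 43 larvae (edgeR 4.0.16, R 4.3.3). A model was called at a Benjamini-Hochberg adjusted p below 0.05. Log2 CPM used a prior count of 1. Standard errors came from the fold change and the F statistic. Named models have the 2 smallest p-values per direction among called models with a mean of at least 20 CPM in the highest of the 4 groups. Members, lists and tests were chosen with earlier results of these data known.

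In simulated counts for this difference, with 200 of 14188 models changed, 21% of 2-fold and 37% of 4-fold changes were recovered and 4 unchanged models called. Simulated larvae were drawn independently, without clusters of alike larvae. The number of unchanged models called in the real fit is therefore not known from the simulation. Chi-square tests of counts between 133 replicate pairs gave at least 11.6 for each degree of freedom, so every pair differed by more than sampling noise. Nothing in the labels pairs the replicate numbers, and the p-values reflect how much single larvae varied. They treat larvae as independent, although by correlation the larvae fell into 12 clusters, 10 of them with at least 2 larvae. The larvae apart at the low end of the second component made up a single cluster, and those at its other end another. Both were spread unevenly over the groups compared. Alternatives were other scalings, filters and tools (DESeq2 1.42.0, limma 3.58.1), subsets of larvae, added terms, thinned counts and the loss of each larva in turn.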

Additional observations from a re-analysis of the deposited data

Results flagged for a closer look

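The age change differed between constant light and day-night for 368 models, by the test of the difference itself. The named models differed by 2.62 (Aqu2.1.32109_001), 1.80 (Aqu2.1.28587_001), -2.21 (Aqu2.1.29913_001) and -1.41 (Aqu2.1.33914_001) on the log2 scale.

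Of 32 sets of 7 or 8 values checked for a single larva far from the rest of its group, 3 held one, where chance gives about 1 in 20. Constant-light replicate 5 at 9 hpe had a mean log2 CPM of 6.14 over the 221 positive models, below the other 6 larvae of its group, and without it 468 models were called. Constant-light replicate 6 at 1 hpe had 1082 CPM of Aqu2.1.28587_001, and constant-light replicate 7 at 1 hpe had 131 CPM of Aqu2.1.33914_001, each the highest of its group.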

How the results depend on the processing

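The count of 368, of 14188 models tested, became 611 with DESeq2 and 146 with no filter on low counts (69 positive, 77 negative). With no filter 38514 models were tested and adjusted over. It became 142 without the 8 larvae apart on the second component (134 of them among the 368). It was 233 with the replicate number as a replicate block, 224 of them among the 368. Deviations of same-numbered larvae had a median correlation of -0.01 over 42 pairs, with 3 above 0.1. No pairing by number was thus seen, which does not show that there was none. The cause of these shifts in the count was not tested. The other alternatives kept the count within 1.5 times: 367 with median-of-ratios scaling, 333 with library totals only, 413 at a minimum count of 50, 301 with limma voom, 298 with only the 29 larvae in the fit, 264 with clusters of alike larvae as a term (192 of them among the 368), 281 with thinned counts and 353 without models whose counts came near the table's highest. Leaving out 1 of the 29 larvae at a time gave 262 to 468 calls, with 254 to 354 among the 368, and all 368 kept their sign.

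The 4 named models stayed called in every alternative, with adjusted p up to 5.03e-06 for Aqu2.1.32109_001 (itself left out with the models near the highest count), 0.000127 for Aqu2.1.28587_001, 0.000115 for Aqu2.1.29913_001 and 2.31e-05 for Aqu2.1.33914_001. The lists chosen in constant dark were chosen anew in each setting. Their median age changes moved by less than the spread between larvae under 2 other scalings and no filter. The same held without the 8 larvae apart, a setting added after the data were seen, at 0.34 and 0.63 for the risen and -0.40 and -0.77 for the fallen models (constant light, then day-night). Relative to the median of all models, library totals alone moved the fallen list by more than that spread. Its values went from -0.32 to -0.46 in constant light and from -0.73 to -0.96 in day-night. The risen list moved by less than the spread. Simulated recovery was low, so models not called may still differ.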
